A study of Mus musculus with 21 samples.

Results

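The middle upstream gene desert of Satb1 is the stretch of mouse chromosome 17 from 52.200 to 52.409 Mb (mm9), which reaches out to 435 kb upstream of the Satb1 promoter viewpoint at 51.974 Mb. Its members were all positions within these limits, listed in steps of 1000 bp, in each of the 7 libraries of the Satb1 locus. This gave 210 positions per library and 1470 in all, of 9107 at the Satb1 locus and 14771 in the series. The rule uses positions and no measured value. In the RefSeq gene order (GRCm38.p6) the interval between Satb1 and its upstream protein-coding neighbour Kcnh8 held 5 annotated genes, none of them protein-coding. They were the lncRNA genes Gm20098, Gm19585, Gm41600 and Gm27217 and the pseudogene Gm19197. Which of these lie inside the 210 positions was not analysed here, because the annotation is of another build than the profiles.

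Contacts were measured by 4C-seq, in which chromatin is fixed, cut and ligated, and the DNA ligated to a chosen fragment, the viewpoint, is amplified and sequenced. At the Satb1 promoter itself, thymus, fetal brain and embryonic stem (ES) cells were profiled, all with NlaIII as the first and DpnII as the second restriction enzyme. A site labelled -470 kb was profiled in thymus and in ES cells with DpnII and Csp6I. Viewpoints labelled +1.5 kb (NlaIII and Csp6I) and -6 kb (DpnII and Csp6I) were profiled in thymus only. Thymus was from adult C57BL/6 mice, with 1 thymus per preparation. Brain was from C57BL/6 fetuses at 14.5 days post coitum, with 10 to 12 brains pooled. ES cells were the established line IB10/E14. All cells were fixed with 2% formaldehyde for 10 minutes. Each group was 1 library, so no difference below has a replicate check and no test was run. The files hold no expression values, so the tissue labels could not be set against marker genes.

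A gene desert is a long stretch without protein-coding genes. Such stretches often hold distal enhancers, which act on a promoter far away, and a looped chromatin fibre can bring both close together in the nucleus. Satb1 encodes a chromatin-organizing protein that is abundant in thymocytes, where it binds AT-rich DNA and shapes the activity of many T cell genes. In 4C-seq the signal falls with distance from the viewpoint whatever the tissue, so a contact is read from signal above that decay. In a bulk library, frequent contact in few cells and rare contact in many cells cannot be told apart.

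The DNA of the desert cannot be shown, since no genome of the profiles' build was used here. The end from which 5 of the 7 libraries looked at the desert is the Satb1 promoter region. The RefSeq promoter of Satb1 listed farthest upstream (GRCm38.p6, chr17:51833241-51833540, minus strand, from 250 bases before to 50 bases after the gene start) is printed with the sites of the restriction enzymes in capitals, since these enzymes set which fragments a library can see.

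Satb1 promoter: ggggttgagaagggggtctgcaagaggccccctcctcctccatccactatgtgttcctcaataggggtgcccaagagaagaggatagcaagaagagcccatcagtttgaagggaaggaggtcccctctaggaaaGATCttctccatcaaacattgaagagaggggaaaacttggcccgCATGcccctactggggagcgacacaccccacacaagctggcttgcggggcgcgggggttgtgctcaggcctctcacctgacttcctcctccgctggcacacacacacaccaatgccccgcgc

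The stretch holds 1 DpnII site (GATC) and 1 NlaIII site (CATG), and 0 Csp6I sites (GTAC). These motifs read the same on both strands and do not overlap one another here. Of 32851 RefSeq mouse promoters of the same length, 48% held GATC, 61.1% held CATG and 35.8% held GTAC. Whether the printed bases are part of the viewpoint fragment was not tested.

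The profiles were signals smoothed by the authors, with a level near 1 at the viewpoint, and the 5 kb window was used. Each window has a middle, a higher and a lower value. Here "relative signal" is the middle value divided by the library's mean over all positions more than 10 kb from the viewpoint, so that 1 is the average of that library. No counting interval can be given, because read numbers are unknown. Positions with a signal under 1e-09 are called empty. Several profiles hold one low value at many positions, here called the commonest value, which acts as a floor without rank. Within the desert 81 of 210 positions held it in the thymus promoter library, 86 in the +1.5 kb thymus library, 11 in brain and 107 in ES cells from the promoter. In the -6 kb and -470 kb thymus libraries the commonest value was 0, at 12 positions each.

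From the promoter, the desert carried more of the signal in thymus than in brain or ES cells. The mean relative signal over the desert was 0.968 in thymus, 0.613 in brain and 0.239 in ES cells. It was 1.13 from the +1.5 kb viewpoint and 1.44 from the -6 kb viewpoint in thymus. On this scale all 3 thymus values lay above brain and ES cells. Scaled to the library median instead, the values were 4.20 from the promoter, 6.28 from +1.5 kb and 2.02 from -6 kb in thymus, against 0.966 in brain and 2.32 in ES cells, so that -6 kb thymus lay below ES cells. In the promoter and +1.5 kb thymus libraries and in ES cells from the promoter, the library median was itself the commonest value. In the other libraries the median lay above it, so median scaling divides some libraries by their floor and others not. Relative to the library mean, the thymus values differed by up to 1.48-fold among themselves, with an SD of 0.29 on the log2 scale. The -470 kb site is only 11 to 220 kb away, and from there the mean was 2.36 in thymus and 2.35 in ES cells. The desert makes up 16.5% of the positions beyond 10 kb. It carried 15.9% of the signal from the promoter in thymus, 18.6% from +1.5 kb, 23.7% from -6 kb, 10.1% in brain and 3.93% in ES cells. It carried 38.9% from the -470 kb site in thymus and 38.7% in ES cells.

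**Figure D1:**
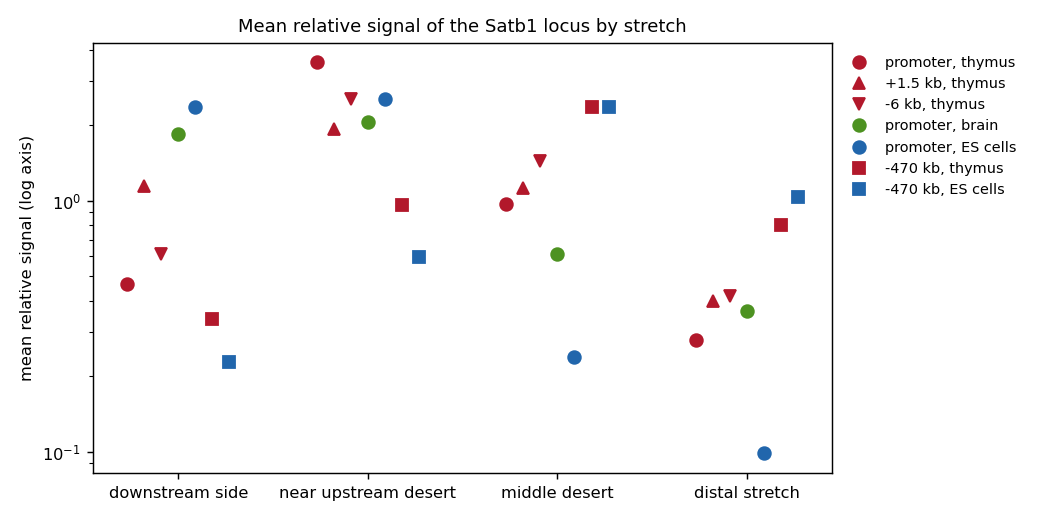
Mean relative signal (log axis) of 4 stretches of the Satb1 locus in each of the 7 libraries, 1 point per library, with marker shape for the viewpoint and colour for the tissue (red thymus, green brain, blue ES cells). In the middle desert the 3 thymus points of the promoter region lie at 0.968, 1.13 and 1.44, above brain at 0.613 and ES cells at 0.239, while both points of the -470 kb site lie at 2.36 and 2.35.

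The means hide uneven profiles. In the thymus promoter library the median relative signal of the desert was 0.469 and the highest value 5.80, at 52.211 Mb. From +1.5 kb the median was 0.467 and the highest value 6.44, at 52.307 Mb. From -6 kb the profile was smoother, with a median of 1.44 and a highest value of 2.98 at 52.329 Mb. Brain had a median of 0.591 and a highest value of 2.05 at 52.213 Mb. ES cells had a median of 0.103, which is the commonest value of that library, and a highest value of 1.57 at 52.320 Mb. The highest values of brain and of the thymus promoter library thus lay within one 5 kb window of each other, and the highest ES value lay in the same 10 kb bin as that of -6 kb thymus.

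**Figure D2:**
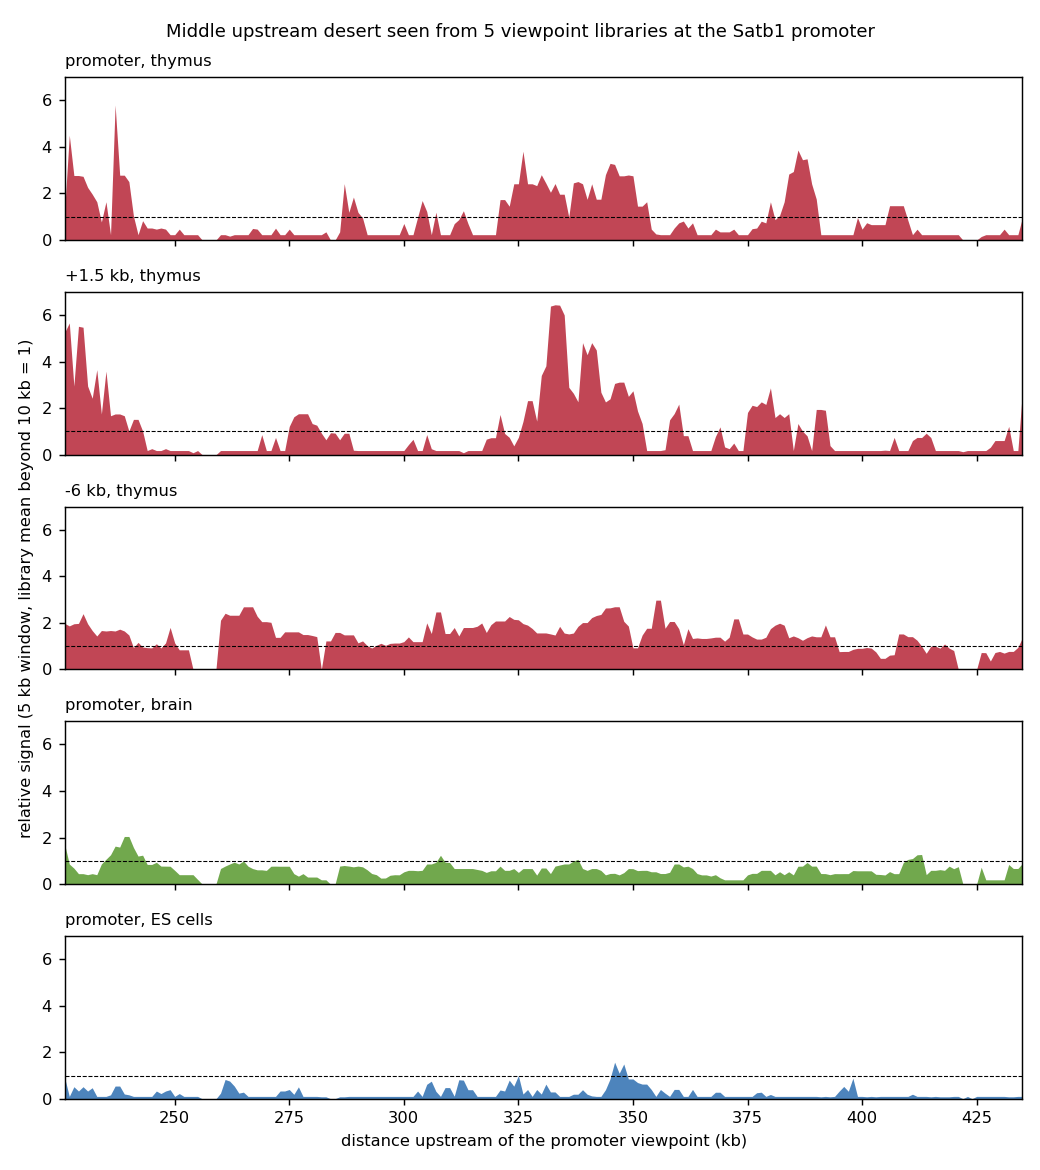
Relative signal of the 5 kb window across the desert in the 5 libraries with a viewpoint at or near the promoter, against distance upstream of the promoter viewpoint in kb; the dashed line is the library mean beyond 10 kb. Signal in the promoter and +1.5 kb thymus libraries gathers in blocks about 232, 344 and 385 kb from the promoter, the -6 kb thymus profile is flatter (highest 2.98), and ES cells stay under 1 except near 346 kb (highest 1.57).

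Beside the rest of the locus, the ratio of mean signals between thymus and ES cells was greater in the desert than in the other upstream stretches. The ratio of mean relative signal, thymus over ES cells from the promoter, was 4.05-fold in the desert (log2 2.02), and 0.86 on the log2 scale when libraries were scaled to their median instead of their mean. It was 0.48 on the log2 scale in the near upstream stretch between the promoter and 52.200 Mb, with 3.56 in thymus and 2.55 in ES cells. It was 1.50 on the log2 scale in the distal stretch beyond 52.409 Mb, with 0.280 in thymus and 0.0987 in ES cells. The distal ES mean is below that library's commonest value of 0.103, so the distal ratio depends on the floor. On the downstream side thymus was the lower one, at 0.466 against 2.36 in ES cells. Relative signals of one library sum to a fixed total, so the lower downstream share of thymus and its higher upstream share are not independent. Differences between stretches were not tested.

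Position by position, 96 of the 210 positions of the desert (45.7%) were at least 2-fold higher in thymus than in ES cells, against 17.1% of all 1275 positions of this pair. Another 6 (2.86%) were at least 2-fold lower, against 18.7% of all positions. These counts were far less one-sided when scaled to the library median, with 56 higher and 32 lower. With the monotone decay divided out they were 52 higher and 45 lower. That decay is fitted to each library's own signal. Up to 274 kb from the promoter it rests on both sides, and farther out on the desert's side alone. Beyond 274 kb those counts therefore compare places within the desert and not its level. Nearer the promoter they also depend on the downstream signal at the same distances. A pseudocount of 10% of the library mean was added to both signals of each ratio. In 58 of the 96 positions the ES signal was at or below its commonest value, so their folds depend on that floor. At all 6 lower positions the thymus signal was at or below its own commonest value, so those folds depend on a floor as well. The 10 kb bins ranged from -0.75 to 2.95 in log2 ratio, and 20 of 21 lay above 0. The bin at 52.36 Mb had the highest ratio, with a mean of 1.61 in thymus and 0.122 in ES cells. The bin at 52.23 Mb was the lowest, with 0.132 in thymus and 0.291 in ES cells. By the rule for single positions, the greatest differences lay at 52.201 Mb (4.50 in thymus, 0.103 in ES cells), 52.360 Mb (3.87 and 0.103) and 52.261 Mb (2.42 and 0.0870). In the other direction, 52.236 Mb had 0.167 in thymus and 0.760 in ES cells. The range between the lower and higher value of the window overlapped between the libraries at every position of the desert. Over the whole profile such ranges were apart with thymus above at 6.67% of positions and with thymus below at 0.549%. In the distal stretch beyond the desert they were apart with thymus above at 15.0% of positions. By this measure the libraries were thus farther apart there than in the desert. By the 2-fold measure they were not, with 7.58% of distal positions at least 2-fold higher in thymus, against 45.7% in the desert. The median ES signal in the distal stretch was 0.0870, below that library's commonest value, so the separation there also lies near the floor.

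All 3 thymus libraries of the promoter region lay above ES cells in 17 of the 21 bins relative to the library mean, and all 3 lay below in 0. Over the 126 bins of the locus the shares were 42.9% above and 19.8% below. This sets viewpoints and enzyme pairs that differ against the same ES library, so it is a description. It also depends on the scale. Scaled to the library median, -6 kb thymus lay below ES cells over the whole desert (2.02 against 2.32), and the bins were not counted on that scale. The median was the commonest value in ES cells but not in -6 kb thymus.

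Against brain, relative to the library means, the desert split into parts that were higher and parts that were lower in thymus. Scaled to the library median the split was gone, with 128 positions at least 2-fold higher in thymus and 0 lower. That median was the commonest value in thymus but not in brain. The mean relative signal was 1.58-fold higher in thymus (log2 0.66), but lower in thymus for the signal as deposited (log2 -0.66). The median over positions was also lower in thymus, at 0.469 against 0.591 in brain (log2 -0.33). By position, thymus was above brain at 103 and below it at 97. In thymus 57 positions (27.1%) were at least 2-fold higher, against 10% of all positions, and 43 (20.5%) were at least 2-fold lower, against 35.5%. At 42 of these 43 the thymus signal was at or below its commonest value. Bins from 52.30 to 52.33 Mb were higher in thymus, at 2.47, 2.22 and 1.96, against 0.668, 0.696 and 0.551 in brain. Bins at 52.35 and 52.36 Mb were also higher in thymus, at 1.35 and 1.61, against 0.496 and 0.622 in brain. The bins at 52.23 and 52.39 Mb were the lowest in ratio, at 0.132 and 0.138 in thymus, against 0.511 and 0.399 in brain. The greatest single differences lay at 52.359 Mb (2.94 in thymus, 0.396 in brain), 52.319 Mb (3.30 and 0.457) and 52.203 Mb (2.77 and 0.449). In the other direction, 52.387 Mb had 0.230 in thymus and 1.27 in brain. Window ranges were apart at no position of the desert, and over the whole profile at 0.235% with thymus above and 2.12% with thymus below. All 3 thymus libraries of the promoter region lay above brain in 8 of 21 bins and all 3 below in 0. Over the locus the shares were 18.3% above and 41.3% below.

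**Figure D3:**
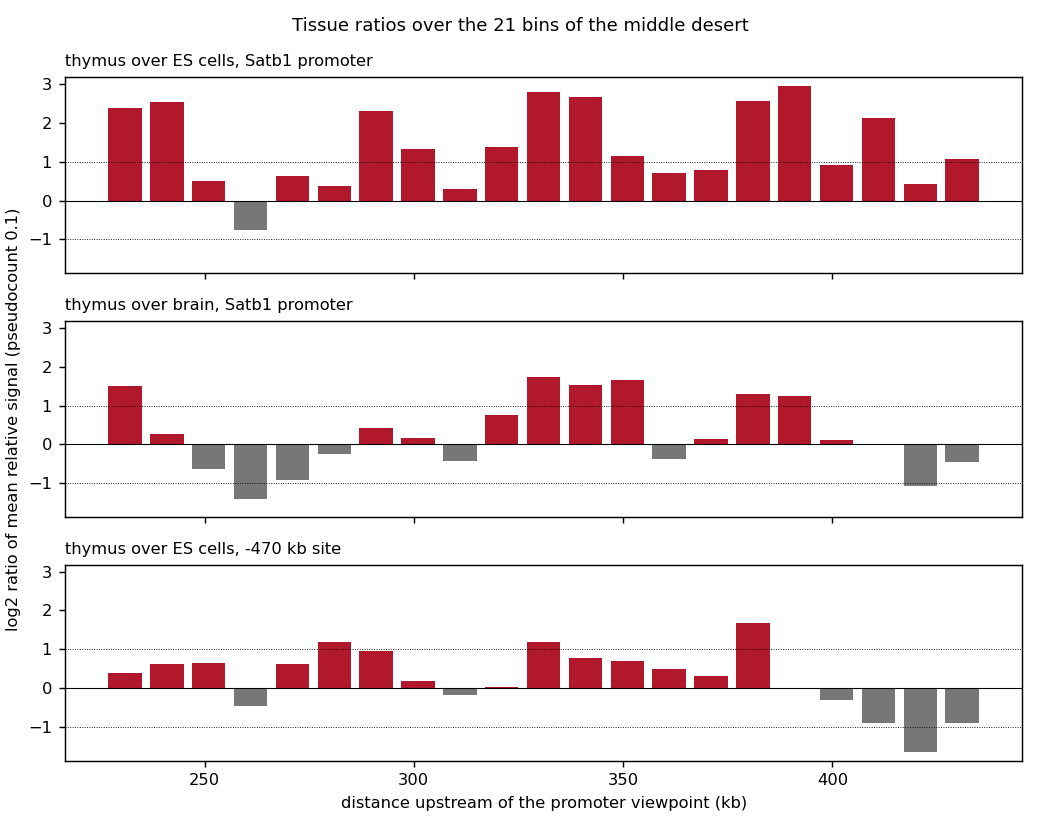
Log2 ratio of mean relative signal (pseudocount 0.1) in the 21 bins of 10 kb, for thymus over ES cells from the promoter, thymus over brain from the promoter and thymus over ES cells from the -470 kb site; red bars are higher and grey bars lower in thymus, and dotted lines mark 2-fold. Over ES cells from the promoter 20 of 21 bins are above 0, over brain 13 are, and from the -470 kb site 14 are, with the lowest bar at -1.64 near that site.

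Relative to the library mean, brain lay above ES cells in 20 of the 21 bins. The mean relative signal was 2.57-fold higher in brain (log2 1.36), and this direction turned (log2 -1.27) when libraries were scaled to their median. That median was the commonest value in ES cells but not in brain. In brain 123 positions (58.6%) were at least 2-fold higher, against 34.7% of all positions, and 5 (2.38%) were at least 2-fold lower, against 4.71%. The ES signal was at or below its commonest value at 101 of the 123. The bin from 52.32 Mb was the exception, with 0.551 in brain and 0.834 in ES cells. The greatest single difference lay at 52.215 Mb, with 1.57 in brain and 0.103 in ES cells. The comparisons with thymus, brain and ES cells share libraries and are not independent.

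These ratios can be set beside a technical pair of the same series, the Hba-a1 promoter in fetal liver from full template and from 1/16 of it. In 34 bins of 10 kb the log2 ratio of full over 1/16 template ran from -2.14 to 0.61, with a median of -1.66 and an SD of 0.80. With full template 25 of the 34 bins were at least 2-fold lower. In the 21 bins of the desert the log2 ratio ran from -0.75 to 2.95 for thymus over ES cells, from -1.40 to 1.74 for thymus over brain and from -0.52 to 2.28 for brain over ES cells. The technical pair reaches only 183 kb from its viewpoint and is at another locus, so it gives no error for the distances of the desert from the promoter.

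Where the signal lay inside the desert does not depend on scaling between libraries. The desert was divided into stretches of 70 kb. The middle stretch, 52.270 to 52.339 Mb, held 46.1% of the desert's own signal from the promoter in thymus, 47.3% from +1.5 kb and 41.6% from -6 kb. It held 34.8% in brain and 52.1% in ES cells, against 33.3% of the positions. The stretch nearest the promoter held 28.8%, 31.8% and 33.1% in the same 3 thymus libraries, 37.5% in brain and 29.3% in ES cells. Brain was thus the one library near the promoter in which the middle stretch was not the fullest, and its profile was the most even after -6 kb thymus. The 5 fullest bins of 21 held 52.2% of the signal from the promoter in thymus, 63.2% from +1.5 kb, 32.8% from -6 kb, 35.0% in brain and 45.8% in ES cells.

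**Figure D4:**
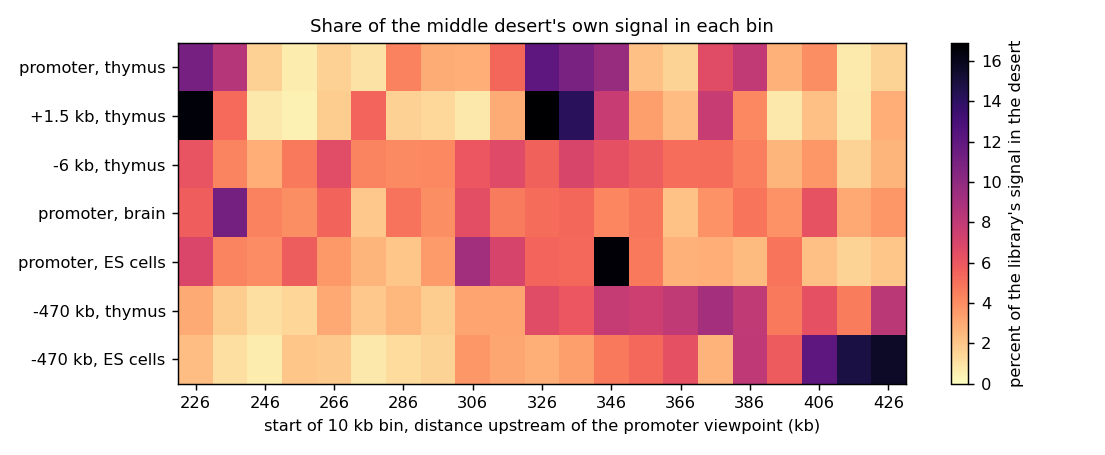
Percent of each library's signal within the desert that falls in each of 21 bins of 10 kb (darker is more), placed by distance upstream of the promoter viewpoint; rows are the 7 libraries. The bins from 326 to 346 kb are dark in the promoter and +1.5 kb thymus rows, the fullest ES bin starts at 346 kb with 16.6%, the fullest brain bin starts at 236 kb with 11.1%, and the ES row of the -470 kb site darkens toward that site, up to 15.6%.

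A few blocks, picked after their values were seen, are given as a description. The block from 52.30 to 52.33 Mb (14.3% of positions) held 32.7% of the desert's signal from the promoter in thymus, 38.8% from +1.5 kb and 18.9% from -6 kb. It held 14.9% in brain and 27.4% in ES cells. Seen from the -470 kb site it held 20.5% in thymus and 10.9% in ES cells. So the block was above its share of positions in all 4 thymus libraries and in ES cells from the promoter, near it in brain and below it in the -470 kb ES library. The block from 52.20 to 52.22 Mb (9.52% of positions) held 19.5% from the promoter in thymus, 21.8% from +1.5 kb and 10.5% from -6 kb. It held 16.8% in brain and 11.3% in ES cells. The block from 52.35 to 52.37 Mb, also 9.52% of positions, held 14.6%, 12.0% and 9.75% in the same thymus libraries, 8.68% in brain and 5.33% in ES cells. In thymus it held 17.1% as seen from the -470 kb site, and in ES cells 10.8%.

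Contact maxima were then placed against the distance decay. Observed over expected (O/E) is the mean signal within 5 kb of a position over that expected from a monotone fall of that library's signal with distance. Up to 5 maxima per library were taken, at least 20 kb apart, with O/E above 1 and signal in the library's top 25%. From the promoter, the profiles reach only 274 kb downstream. Beyond that distance the decay rests on the desert's side alone, so O/E there ranks places within the desert and does not measure its level. In the part of the desert nearer the promoter the decay rests on both sides, so O/E there also depends on the downstream signal. There were 25 maxima in all. The promoter, +1.5 kb and -6 kb thymus libraries had 4 each, brain 2 and ES cells 1, and the -470 kb site had 5 in thymus and 5 in ES cells. Of the 25, 20 (80%) had a maximum of another library within 10 kb, but so had 85.1% of all positions of the desert, so this share shows no sharing beyond the background. A position of the desert had a maximum within 10 kb in a median of 2 libraries, in at least 5 libraries at 11.9% of positions and in 6 at 4.29%.

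The most recurrent site was 52.318 Mb, 344 kb from the promoter viewpoint and 102 kb from the -470 kb viewpoint. A maximum lay within 10 kb of it in 6 of the 7 libraries, all but ES cells from the -470 kb site. Brain was counted through a maximum at 52.312 Mb, and its O/E at 52.318 Mb itself was 0.906. With the 20 kb window it was found in 4, all of them thymus. O/E at the maximum itself was 3.16 from the promoter in thymus, 4.53 from +1.5 kb, 1.98 from -6 kb, 1.22 in brain and 2.42 in ES cells. In thymus from the -470 kb site it was 1.74. Relative signal averaged within 5 kb of 52.318 Mb was 2.52 in thymus, 0.551 in brain and 0.653 in ES cells from the promoter. It was 3.42 from +1.5 kb and 2.32 from -6 kb in thymus. From the -470 kb site it was 3.60 in thymus and 1.91 in ES cells. On this scale all 4 thymus libraries were above all 3 others at this site. For the signal as deposited, the promoter (0.0205) and +1.5 kb (0.0350) thymus libraries were below -470 kb ES cells (0.0355). The -6 kb (0.105) and -470 kb (0.102) thymus libraries stayed above all 3 others. As multiples of each library's own desert mean, however, thymus (2.61) and ES cells (2.73) from the promoter were close, and brain (0.899) was below both.

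The site at 52.203 Mb, 229 kb from the promoter, had a maximum within 10 kb in 5 libraries, all 4 thymus libraries and brain. With the 2 kb window it was found in 4, the promoter, +1.5 kb and -6 kb thymus libraries and ES cells from the promoter. O/E at the maximum was 3.06 from the promoter in thymus, 3.62 from +1.5 kb, 1.59 from -6 kb, 1.93 from the -470 kb site and 1.56 in brain. The brain maximum lay at 52.213 Mb and the thymus maximum of the promoter library at 52.206 Mb. Relative signal within 5 kb of 52.203 Mb was 1.98 in thymus, 0.906 in brain and 0.575 in ES cells from the promoter. As multiples of each library's own desert mean, ES cells (2.41) lay above thymus (2.04) and brain (1.48).

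The site at 52.353 Mb, 379 kb from the promoter and 67 kb from the -470 kb viewpoint, had maxima in 4 libraries. These were the promoter (52.359 Mb, O/E 2.93), +1.5 kb (52.353 Mb, 1.84) and -470 kb (52.354 Mb, 1.56) thymus libraries and the -470 kb ES library (52.363 Mb, 1.32). Relative signal within 5 kb of 52.353 Mb was 1.01 in thymus, 0.467 in brain and 0.141 in ES cells from the promoter. From the -470 kb site it was 4.51 in thymus and 1.52 in ES cells. The ES value from the promoter is near that library's commonest value of 0.103. With the pseudocount, the log2 ratio of thymus over ES cells was 2.20 from the promoter and 1.50 from the -470 kb site. Relative to each library's own desert mean, thymus was 1.76-fold above ES cells from the promoter and 2.95-fold from the -470 kb site. The -470 kb ES library was at its commonest value of 0.0943 at 52.356 Mb, inside this window, and at 0.116 at 52.357 Mb. In the next bin, from 52.36 Mb, thymus was 0.989-fold of ES cells from the -470 kb site, so the difference was local.

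The remaining recurrent sites had maxima in libraries of one enzyme pair at the 5 kb window. Maxima near 52.239 Mb appeared in 3 libraries, -6 kb thymus (O/E 2.01) and the -470 kb site in thymus (1.13) and ES cells (1.19), which are the 3 libraries cut with DpnII and Csp6I. Relative signal there was 2.36 from -6 kb in thymus, but 0.270 from the promoter and 0.242 from +1.5 kb in thymus. From the promoter it was 0.760 in brain and 0.311 in ES cells, 1.24 and 1.30 times those libraries' own desert means. From the -470 kb site it was 1.48 in thymus and 1.49 in ES cells, 0.629 and 0.631 times theirs. Relative to the library mean, the libraries of this enzyme pair thus lay above all others at this site. As multiples of the libraries' own desert means they did not. The part of the enzymes in this was not tested. Maxima near 52.296 Mb appeared in 2 libraries of the same enzyme pair, -6 kb thymus (1.73) and the -470 kb site in thymus (1.56, at 52.303 Mb). With the 2 kb window those near 52.296 Mb were instead in ES cells, from the promoter and from the -470 kb site, which differ in enzymes. Maxima found in 1 library alone were 52.265 Mb (promoter, thymus), 52.254 Mb (+1.5 kb, thymus), and 52.285, 52.342 and 52.397 Mb (-470 kb site, ES cells), with O/E from 1.11 to 1.40.

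From the -470 kb site the desert is the flank facing the gene. Relative to the library mean its level was 2.36 in thymus and 2.35 in ES cells (1.00-fold), and the log2 ratio was -0.62 when scaled to the library median and 0.62 for the signal as deposited. Its shape, read from shares within each library, differed between them. The 70 kb nearest the -470 kb site held 49.0% of the desert's signal in thymus and 65.6% in ES cells. The middle 70 kb held 36.1% in thymus and 24.5% in ES cells, and the 70 kb nearest the promoter 14.8% and 9.82%. Thymus thus had the larger share of its signal in the stretches farther from the site. The highest bin was 52.35 Mb in thymus, at 4.53, and 52.40 Mb in ES cells, at 7.71. The highest single values were 6.06 at 52.357 Mb in thymus and 15.96 at 52.400 Mb in ES cells.

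**Figure D5:**
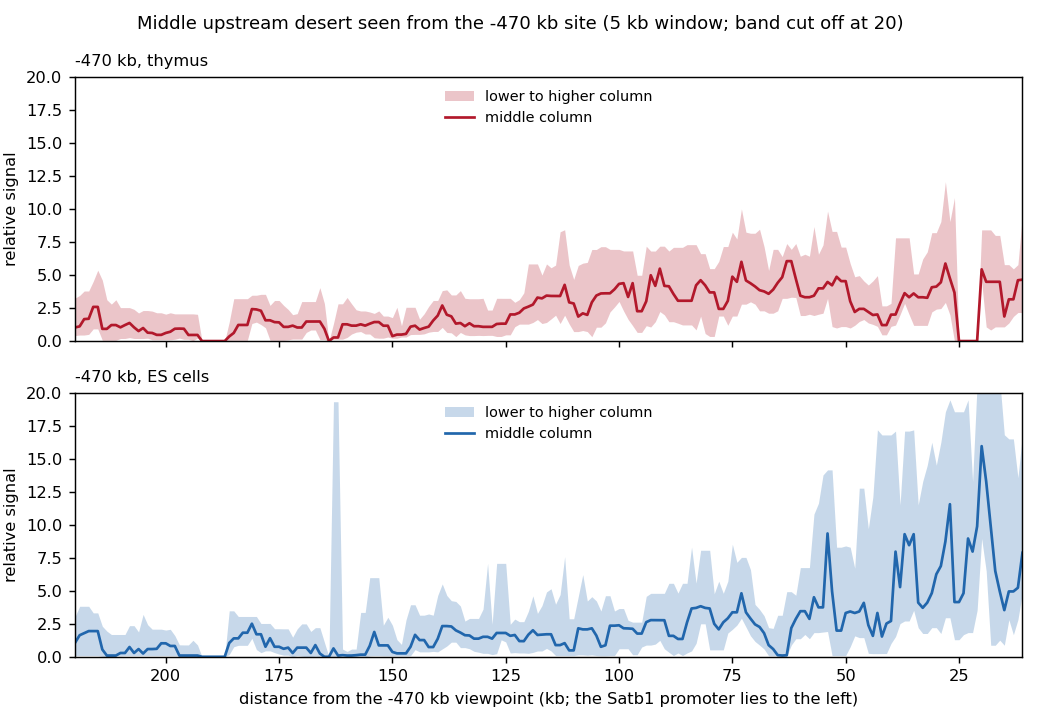
Relative signal across the desert from the -470 kb viewpoint in thymus (above) and ES cells (below) against distance from that viewpoint in kb; the line is the middle value of the 5 kb window and the band runs from its lower to its higher value, cut off at 20. In thymus the highest value is 6.06 at 52.357 Mb, 63 kb from the viewpoint, whereas in ES cells it is 15.96 at 52.400 Mb, 20 kb from it.

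Set against the same distances on the far side of the -470 kb site, the desert was 1.20-fold fuller in thymus (2.36 against 1.97) and 0.973-fold as full in ES cells (2.35 against 2.42). Its middle 70 kb, 81 to 150 kb from the site, was 2.81-fold above the far side in thymus, with 2.56 against 0.909. In ES cells the same distances stood at 0.910-fold, with 1.73 against 1.90. The 70 kb nearest the promoter were below the far side in both, at 0.730-fold in thymus and 0.447-fold in ES cells. In the 70 kb nearest the -470 kb site the order turned, at 0.977-fold in thymus and 1.22-fold in ES cells. This comparison is made within each library and needs no scaling between them.

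Compared position by position from the -470 kb site, 45 positions (21.4%) were at least 2-fold higher in thymus, against 17.2% of all positions, a share near the background. Another 16 (7.62%) were at least 2-fold lower, against 16% of all. The greatest difference upward lay at 52.357 Mb, where thymus had 6.06 and ES cells 0.116, and others lay at 52.255 and 52.208 Mb. The window ranges were apart with thymus above at 2 positions, 52.262 and 52.356 Mb, against 0.235% of all positions. The ES values there were 0.123 and 0.0943, near and at that library's commonest value, as was 0.116 at 52.357 Mb. The ranges were apart with thymus below at 6, from 52.395 to 52.400 Mb, against 4.31%. In 5 of these 6 thymus is listed at 0, from 52.395 to 52.399 Mb. With positions empty in either library left out, the last 30 kb before the site averaged 3.81 in thymus and 6.98 in ES cells.

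Views from both ends of the desert can be compared over its 21 bins after the decay is divided out. In thymus, O/E from the promoter and from the -470 kb site gave Pearson's r of 0.76 and Spearman's rho of 0.72, and 5 of the 7 fullest bins were shared. In ES cells r was 0.55 and rho 0.58, with 2 of 7 shared. Across tissues, the promoter in thymus and the -470 kb site in ES cells gave 0.08 and 0.07, but the -470 kb site in thymus and the promoter in ES cells gave 0.52 and 0.57, as much as the ES pair. Brain from the promoter gave 0.26 and 0.43 with thymus from the -470 kb site. These values are over bins that share a library and neighbouring windows, not over samples. The promoter and +1.5 kb thymus libraries, made with the same first enzyme, had the highest likeness in O/E of all pairs of libraries, at 0.88 and 0.74, and gave 0.86 and 0.72 in relative signal. Without the decay divided out, the thymus ends gave 0.26 and 0.19.

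Some positions of the desert had no signal. Empty were 10 positions from the promoter in thymus, 4 from +1.5 kb, 12 from -6 kb, 10 in brain and 4 in ES cells, and from the -470 kb site 12 in thymus and 7 in ES cells. Together these were 14 positions. Those from 52.230 to 52.233 Mb were empty in all 7 libraries. Libraries cut with the same enzymes had the same gaps in thymus and brain: the 10 of the promoter in thymus were the 10 of brain, and the 12 of -6 kb thymus were the 12 of -470 kb thymus. ES cells differed, with signal at 52.258, 52.259 and 52.396 to 52.399 Mb where the other promoter libraries cut with NlaIII and DpnII were empty, and at 52.395 to 52.399 Mb where the thymus libraries cut with DpnII and Csp6I were empty. From the promoter, the ES signal from 52.390 to 52.399 Mb did not pass that library's commonest value of 0.103. From the -470 kb site it ran from 4.15 to 9.88 at 52.395 to 52.399 Mb. The +1.5 kb thymus library, cut with NlaIII and Csp6I, was empty only at 52.230 to 52.233 Mb and so had signal at these places as well. From 52.390 to 52.399 Mb its relative signal ran from 0.129 to 0.180, its commonest value. The cause of the difference between ES cells and the tissues cut with the same enzymes was not tested.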

How the data were processed

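The deposited values are a signal per 1 kb position, which the authors normalized and smoothed over 48 running windows of 2 to 49 kb with 3 columns each. The build, mm9, comes from the submitters' processing notes. The aligner and filters, the read numbers (and so the depth) and the quantiles that the outer columns stand for were not given in the sources used here. The members, sites and stretches were chosen with earlier results of these data known. Positions within 10 kb of a viewpoint, taken as the highest signal, were left out. Signals were divided by each library's mean beyond 10 kb. Maxima used an isotonic decay over both sides and a pseudocount of 10% of the library mean. Named were maxima, up to 3 positions per direction and comparison with the greatest ratio (at least 20 kb apart), and the highest and lowest bins. No test was run, since every group held 1 library. Alternatives were windows of 2 and 20 kb, scaling, decay and the outer columns. Python 3.11.15, numpy 2.4.6, pandas 2.3.3 and matplotlib 3.10.9 were used.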

Additional observations from a re-analysis of the deposited data

How the results depend on the processing

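No paired analysis was possible because each group held 1 library, and no library could be left out of a group. Of 52 alternative values of the ratio of mean relative signal over the desert, 41 stayed on the same side of 2-fold, and 7 changed sign, 4 of them from the -470 kb site, 2 for thymus over brain and 1 for brain over ES cells. Thymus over ES cells from the promoter (log2 2.02) ran from 0.58 to 2.72 over 13 alternatives. It fell below 2-fold when scaled to the library median (0.86), with the monotone decay divided out (0.58) and with the higher column (0.93). From the promoter, values with the monotone decay divided out do not compare the desert's level alone, since that decay is fitted to each library's own signal. Up to 274 kb it also rests on the downstream side. Thymus over brain (0.66) ran from -0.66, for the signal as deposited, to 2.12 when scaled to the median. It passed 2-fold in that setting and without commonest and empty values (1.16). Brain over ES cells (1.36) was least settled. It reversed to -1.27 when scaled to the median, and was 0.95 with the 2 kb window, 0.10 with the monotone and 0.85 with a power-law decay divided out, 0.070 with the higher column and 0.77 without commonest and empty values. From the -470 kb site thymus over ES cells stayed within 2-fold in all 13, from -0.62 to 0.62.

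Counts of positions moved more. In thymus and ES cells from the promoter the library median was the commonest value. In brain and from the -470 kb site it lay above that value. Scaled to the median, positions at least 2-fold higher numbered 56 for thymus over ES cells (96), 128 for thymus over brain (57), 0 for brain over ES cells (123) and 29 from the -470 kb site (45), and those lower numbered 32 (6), 0 (43), 132 (5) and 48 (16), with the counts of the report in brackets. With the monotone decay divided out, thymus over ES cells had 52 higher and 45 lower, brain over ES cells 33 and 28, and the -470 kb site 10 lower. With the 2 kb window, 15 were lower for thymus and 12 for brain over ES cells, and with 20 kb both were 0, while the -470 kb site had 25 higher and 7 lower.

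Maxima depended on the window. ES cells from the promoter had 4 at 2 kb and 0 at 20 kb, and brain had 5 and 1. At 20 kb the -470 kb site had 2 in thymus and 3 in ES cells. The site at 52.318 Mb was found in 6 libraries at 2 kb and in 4, all thymus, at 20 kb. The sites at 52.239 and 52.296 Mb were left with 1 library at 20 kb, and the second also with 1 when the decay was fitted to the desert's side alone. The causes were not tested. Depth is unknown, and what it limits was not measured.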
